A study of Mus musculus with 9 samples.

Results

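Mature S1pr1-positive CD8 single-positive (CD8 SP) thymocytes are the T cells of the CD8 lineage that have nearly finished their stay in the thymus and carry the receptor with which they leave it. They were chosen from the library of sorted CD8 SP cells by measured values. A cell was a member if it had at least 1 unique molecular identifier (UMI, a tag that marks 1 captured RNA molecule) of S1pr1 and at least 1 of Klf2, fewer than 3 UMIs summed over the effector genes Ly6c2, Plac8, Klrd1 and Cxcr6, and fewer than 5 summed over the cell cycle genes Mki67, Top2a, Cdk1, Birc5, Ube2c and Ccnb2. The rule was met by 1337 of the 5889 filtered WT and I173A cells of the CD8 SP gate, out of 16884 such cells in all gates. Of the members, 640 were WT and 697 were I173A.

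The thymocytes came from adult female mice that were either wild type (WT) or carried the I173A substitution in CD3ε, a chain of the T cell receptor (TCR) complex that passes the signal into the cell. The study's title describes the mutation as enhancing TCR signals and names lipid metabolism. Cells of both genotypes were marked with different hashtag antibodies, sorted as CD4 SP, CD8 SP or double-positive (DP) cells, pooled per gate and sequenced for RNA and TCR. The labels name no further allele or treatment, and how many mice stood behind either genotype is not stated in them. Each genotype was therefore 1 sample per gate: no difference between genotypes has a replicate check, no test was run, and every interval below is a 95% interval that covers counting error only. "Higher" and "lower" describe these libraries.

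Thymocytes that pass positive selection as CD8 SP cells first stay in the medulla, where they are still tested against self antigens, and then mature further. During this last stage the transcription factor KLF2 switches on S1pr1, the receptor for sphingosine 1-phosphate. That lipid is abundant in blood and scarce in the tissue, and cells with the receptor follow it out of the thymus. Late maturation is also marked by the loss of CD24 and CD69 and by the gain of the interleukin-7 receptor and of survival proteins such as BCL2.

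The members were almost all different clones. Among the 1137 members with a TCR α chain there were 1272 distinct α CDR3 sequences, the stretch of the chain that spans the V to J joint and contacts the peptide, and 19 of them were in more than 1 cell. Of 1333 distinct β CDR3 sequences, 7 were in more than 1 cell and none in more than 2. Only 1 pair of α and β sequences was shared, by 2 I173A cells, among 1123 members with both chains. The 3 α CDR3 sequences that were found in 3 or more members are shown because they recurred across genotypes and with different β chains. They are written 5′ to 3′ as deposited for these cells, with capitals for the bases at each end shared with at least 50% of the CDR3 sequences of the same V family or J segment, and lower case for what lies between.
TRAV14 to TRAJ22: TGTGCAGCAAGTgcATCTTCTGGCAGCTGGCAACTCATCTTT
TRAV16 to TRAJ22: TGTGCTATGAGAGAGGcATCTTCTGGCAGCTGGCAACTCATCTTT
TRAV12 or TRAV6 to TRAJ30: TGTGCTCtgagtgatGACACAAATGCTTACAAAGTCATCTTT
By this marking the first had 2 bases between its V and J ends, the second 1 base and the third 8. The marking does not separate bases encoded by a segment from bases added at the joint. The third sequence had V calls from both TRAV12 and TRAV6, so its lower-case stretch may hold bases of the V segment. The TRAV14 to TRAJ22 sequence was carried by 10 members, 6 WT and 4 I173A, or 0.880% (0.423 to 1.61%) of members with an α chain, and it was paired with 11 distinct β chains. The sequence was picked because it recurred in members, so its share there is raised by that choice and cannot be compared evenly with other populations. It was in 5 of 2127 CD8 SP cells without S1pr1, or 0.235% (0.076 to 0.548%), an interval that overlapped that of members. It was in 2 of 1854 CD4 SP cells chosen by the same rule (0.108%). In DP cells it was in 0 of 1650, with an interval up to 0.223%. The other sequences were each in 3 members, 1 WT and 2 I173A, with 3 distinct β chains each. Both TRAJ22 sequences shared the same J end. The V names given to the TRAV14 sequence were 4 near-identical copies of the segment, which the deposited calls cannot separate with certainty.

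The libraries were alike in depth between genotypes. Members held 3617161 UMIs in WT and 3853588 in I173A, with medians of 5425 and 5241 UMIs and 2072 and 2028 genes per cell. The lowest and highest members had 842 and 14556 UMIs in WT and 961 and 16899 in I173A. Median mitochondrial shares were 1.73% and 1.92%. The CD8 SP library shared 124 cell barcodes with the CD4 SP library and 109 with the DP library, 18 and 14 of them in members. Hashtag 5, which has no genotype in the labels, marked 573 further cells that met the rule, and these entered no comparison of genotypes.

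Many cells lay close to the thresholds of the rule. Of the members, 333 WT and 392 I173A cells had a single S1pr1 UMI, 172 and 189 had 2, and 135 and 116 had 3 or more. A single Klf2 UMI was found in 72 and 85 members, and 45 and 55 had 1 UMI of both genes. Just outside were 763 WT and 850 I173A cells with Klf2 but no S1pr1 UMI, and 86 and 94 with S1pr1 but no Klf2. On the effector threshold, 121 and 118 members had a sum of 2, and 99 and 85 cells with both receptor and factor were left out with a sum of 3. On the cycling threshold, 14 and 6 members had sums of 3 or 4, and 5 and 7 cells were left out with 5 or 6. A cell left out for S1pr1 is one in which no molecule was captured at this depth, which is not evidence that it makes none.

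Markers that the rule did not use were compared with the label. Levels are given as CPM, the UMIs of a gene per 1000000 UMIs of the group, first for WT and then for I173A. Il7r, the interleukin-7 receptor chain, was at 190 and 238 CPM in members and at 7.31 and 8.89 in DP cells. It had a UMI in 50.6% (46.7 to 54.6%) and 56.7% (52.9 to 60.4%) of members against 1.23% and 0.78% of DP cells, whose median depth of 2906.5 and 2750.5 UMIs was lower. With every cell thinned to 3000 UMIs the members' shares were 33.4% and 43.4%. Il7r was thus far above the level in DP cells in both genotypes. Ccr7, the chemokine receptor that guides cells to the medulla, stood at 643 and 652 CPM in members and at 15.8 and 14.9 in DP cells. Cd24a, lost in late maturation, was at 9.68 and 5.71 CPM in members and at 255 and 252 in DP cells. Ccr9, a homing receptor high in DP cells, was lower in members, at 267 and 207 CPM against 826 and 1097. These values set the members apart from DP cells, but that contrast cannot separate late from earlier SP cells. Cd69, also lost in late maturation, had a UMI in 41.1% of WT and 30.0% of I173A members. Its level was higher than in CD4 SP cells chosen by the same rule in both genotypes. Ccr9 was 7.23-fold higher than in those CD4 SP cells in WT and 5.69-fold in I173A. How far the members had matured within the SP stage was not tested.

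The lineage was that of the gate. Cd8b1, the CD8 β chain, was at 1880 and 1736 CPM in members against 45.8 and 52.0 in CD4 SP cells of the same rule. Nkg7, a granule protein of cytotoxic cells, had a UMI in 86.4% and 91.2% of members and in 0.61% and 0.80% of those CD4 SP cells, which were deeper, at medians of 6399 and 6227.5 UMIs. Not 1 UMI was found in members for Cd4 or for Zbtb7b, the factor that sets the CD4 fate, so each was below a limit of 0.83 and 0.78 CPM that 3 counts would give. In CD4 SP cells of the same rule Cd4 was at 347 and 357 CPM and Zbtb7b at 89.1 and 80.7. Rag1, the recombinase of cells still rearranging their receptor, had 0 and 3 UMIs in members and reached 1049 and 1232 CPM in DP cells. The plot of marker levels by population and genotype shows these contrasts.

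**Figure D1:**
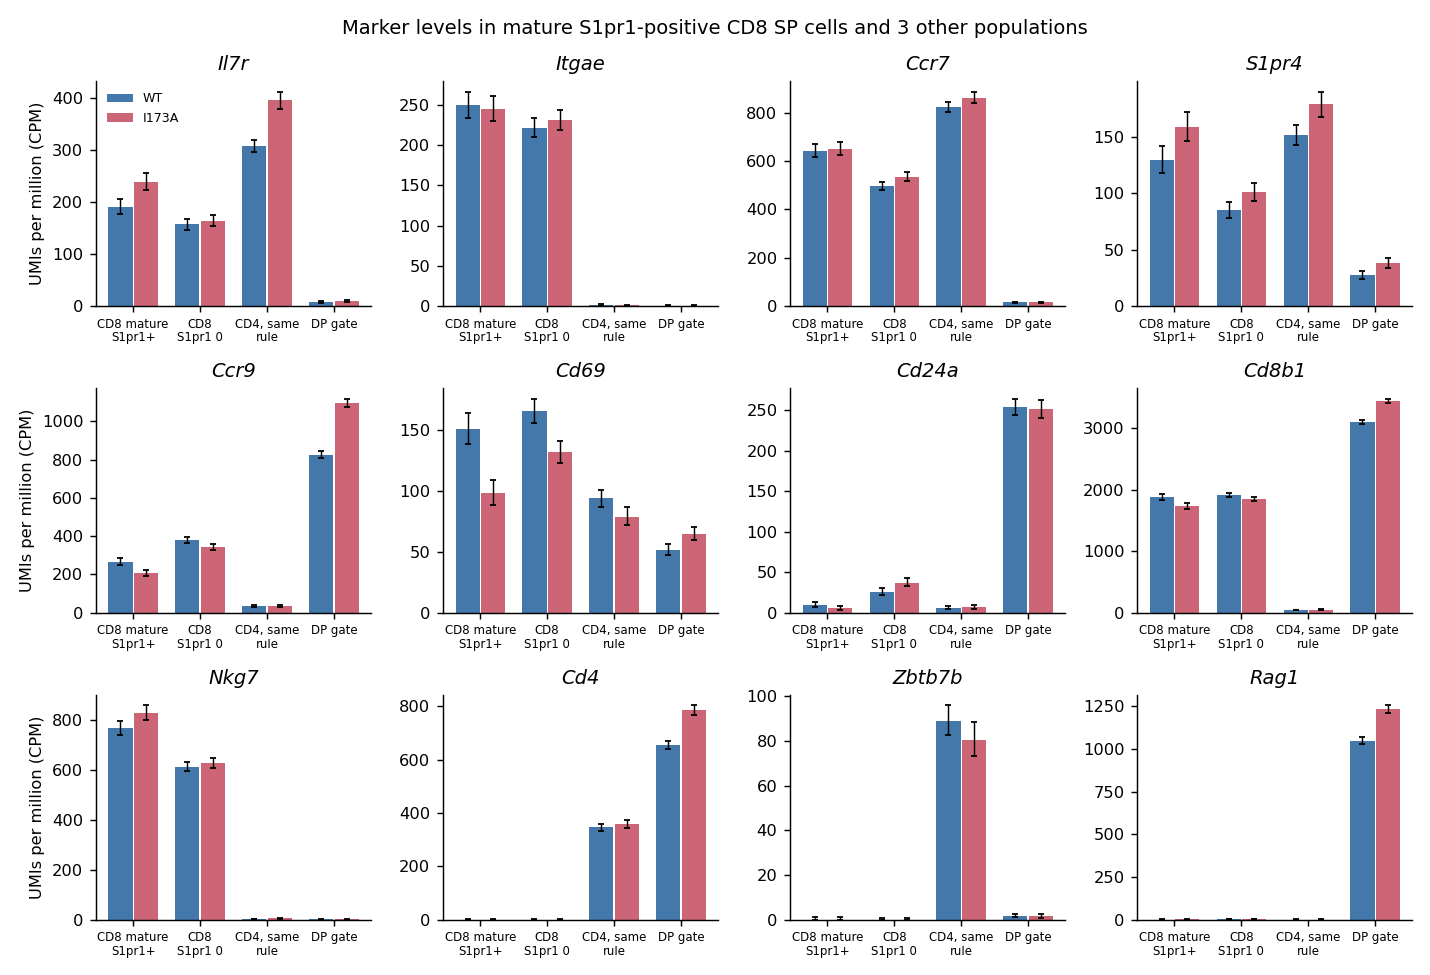
Levels in CPM (vertical axes, linear from 0, bars with exact 95% Poisson intervals) of 12 marker genes in the members, in CD8 SP cells without S1pr1, in CD4 SP cells chosen by the same rule and in all DP cells, with WT in blue and I173A in red. Il7r and Ccr7 were higher in members than in DP cells, Cd24a and Rag1 were near 0 in members, and Cd4 and Zbtb7b were at 0 there.

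Markers of other cells were low or rested on a few genes. The 9 listed genes of natural killer and innate cells gave 0 UMIs in WT members and 1 in I173A members, with 8 of the 9 at 0. Genes of γδ T cells summed to 4.42 and 5.97 CPM, with Blk and Trdv4 at 0. Genes of B cells summed to 178 and 171 CPM, nearly all from Ighm and Cd79b, while Cd22, Ebf1, Ms4a1 and Pax5 were at 0. Cd79b was at 25.4 and 30.6 CPM in members against 1.54 and 1.04 in CD4 SP cells of the same rule. Ighm was at 152 and 140 CPM against 86.9 and 83.4. Macrophage and dendritic cell genes summed to 127 and 134 CPM, with Flt3, Itgax and Siglech at 0. Genes of regulatory T cells summed to 207 and 224 CPM through Ikzf2, Tnfrsf18 and Tnfrsf9, and Foxp3 itself had 6 and 8 UMIs. Stromal genes were at 68.3 and 64.1 CPM with Krt5, Krt8, Pdgfra, Psmb11 and Col3a1 at 0. Each sum was similar in both genotypes.

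The members' share of the gate depended on what it was counted over. They were 21.2% (19.8 to 22.7%) of the 3017 WT cells and 24.3% (22.7 to 25.9%) of the 2872 I173A cells, a ratio of 1.14 (1.03 to 1.28). The effector genes left out 404 WT and 362 I173A cells among those with both S1pr1 and Klf2, and the cycling genes 128 and 114. Over the 1968 and 2104 cells of the gate that met neither exclusion, members were 32.5% and 33.1%, a ratio of 1.02 (0.914 to 1.14). Thinned to 3000 UMIs, which left out 222 and 306 shallower cells, the shares of the gate were 18.2% and 20.8%. In the CD4 SP gate the same rule took 36.8% of WT and 33.03% of I173A cells, a ratio of 0.898 (0.821 to 0.981). In the DP gate it took 5 of 2516 WT and 1 of 2706 I173A cells. Shares within a sorted gate also follow the sort and the pooling of the cells.

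Within the members, I173A and WT were compared gene by gene. A gene was counted where both genotypes together had at least 100 UMIs and 1 of them at least 20 CPM, which left 6105 genes without the 12 of the rule. Of these, 55 were at least 1.5-fold higher in I173A (0.901%) and 39 at least 1.5-fold lower (0.639%). These numbers count sizes, not passed tests. Over all 6105 genes 52.5% of the ratios lay above 1, and the interval lay wholly above 1 for 6.93% and wholly below 1 for 6.13%, the shares to hold beside the counts for each list. With every cell given equal weight, 69.2% of the genes past this fold were higher, against 58.5% when UMIs were summed. The 12 highest and 12 lowest ratios are shown in the plot of the 24 extreme genes.

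**Figure D2:**
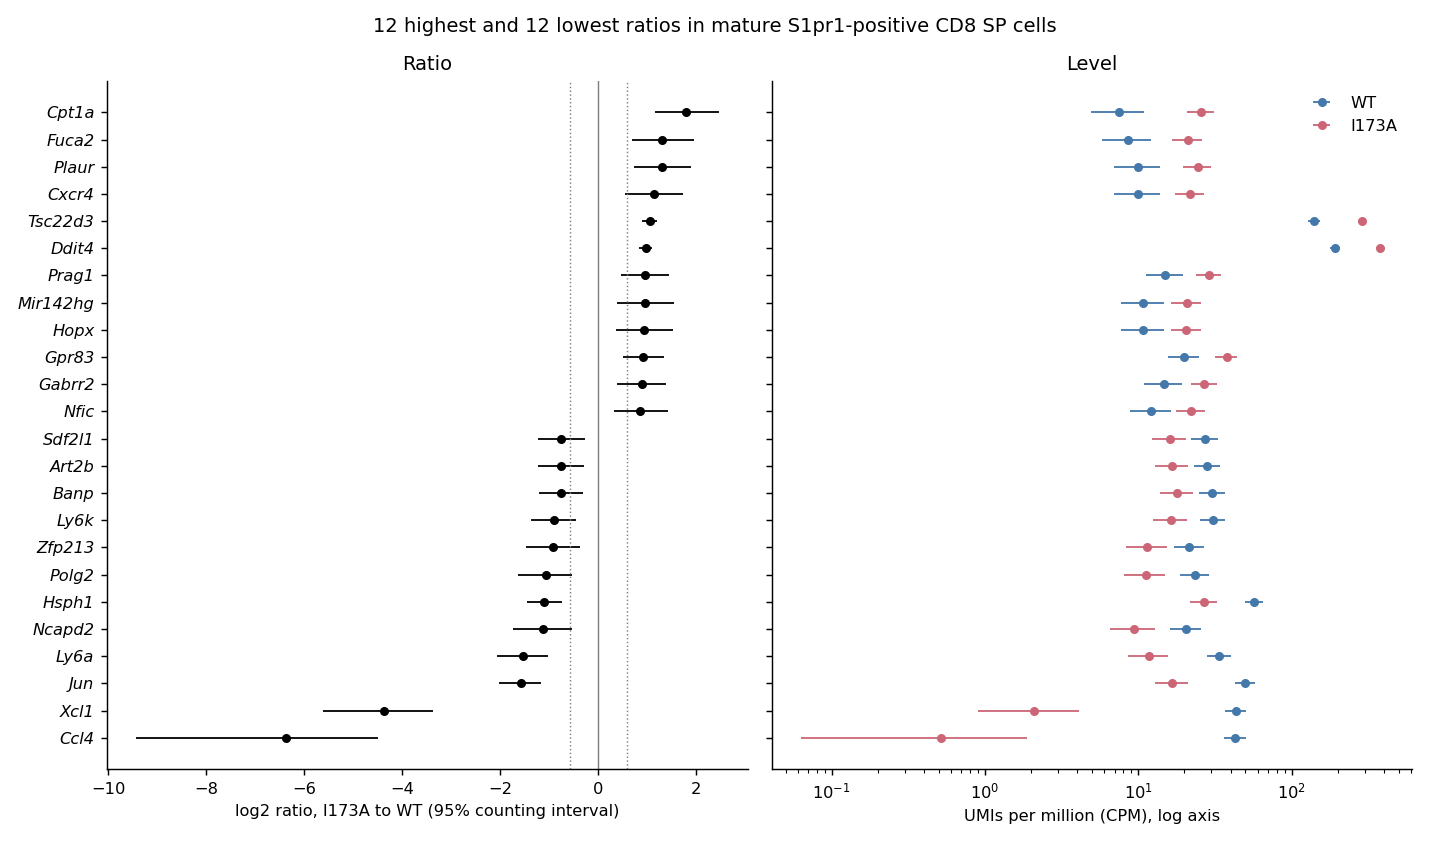
Left, log2 of the ratio of I173A to WT in members with its exact 95% interval for the 12 genes at the top and the 12 at the bottom by ratio, dotted lines at 1.5-fold; right, the level of each gene in CPM in WT (blue) and I173A (red) on a log axis. Cpt1a had the highest ratio, and Tsc22d3 and Ddit4 combined a high ratio with levels above 100 UMIs in both genotypes; the lowest ratios, of Ccl4 and Xcl1, rest mostly on 1 WT cell each.

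Cpt1a (chromosome 19, 3322326 to 3385735, RefSeq annotation of GRCm38.p6) had the highest ratio. It encodes carnitine palmitoyltransferase 1A, which controls the entry of long-chain fatty acids into mitochondria for oxidation. It was at 7.46 CPM in WT (4.92 to 10.9) and 25.7 CPM in I173A (20.9 to 31.3), 3.44-fold higher (2.23 to 5.48). The 27 WT UMIs were spread over 25 cells and the 99 I173A UMIs over 91, so no single cell set the ratio. Cpt1a was seen in 3.91% of WT and 13.1% of I173A members, and in 2.14% and 8.08% after thinning. The groups overlapped fully at the level of cells, most of which had no UMI of it.

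The rest of fatty acid oxidation differed little beside Cpt1a. Of 29 listed genes of the carnitine shuttle and of oxidation, 17 were measured and 13 had a ratio above 1, with a median log2 ratio of 0.15 against 0.01 over all 6105 genes. Cpt1a was the only one past 1.5-fold, and the summed level of the list was 915 and 967 CPM. Hadh, a dehydrogenase of the oxidation cycle, was at 42.9 and 56.8 CPM, or 1.33 times (1.07 to 1.64). Slc25a20, the carnitine carrier of the inner membrane, had a ratio of 1.29 (0.95 to 1.75). Eci2, an isomerase needed for unsaturated fatty acids, and Acsl5, which activates fatty acids, lay below 1, at 0.83 and 0.84.

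Other lipid genes showed small differences in both directions. All 6 measured genes of lipid droplets and lipolysis had a ratio above 1, with a median log2 of 0.23, none was past 1.5-fold, and their summed level was 225 and 262 CPM. Pnpla2, the lipase that opens triglyceride breakdown, was at 40.6 and 51.9 CPM, or 1.28 times (1.03 to 1.59). Lipa, the lysosomal lipase, was 1.23-fold higher (1.02 to 1.48). Of 20 genes of cholesterol synthesis only 6 were measured, 3 on each side of 1. Abcg1, a cholesterol exporter, was at 83.2 and 63.3 CPM, or 0.76 times (0.64 to 0.90), whereas the exporter Abca1 was at 0.972 (0.745 to 1.27). Fasn, fatty acid synthase, had a ratio of 0.86 and Acly, which supplies it with acetyl-CoA, 1.12.

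Tsc22d3 and Ddit4 were the most abundant of the 12 genes with the highest ratios. Tsc22d3 (X chromosome, 140539528 to 140600522) encodes GILZ, a protein induced by glucocorticoids and by FoxO factors, and was at 140 CPM (128 to 153) in WT and 289 (273 to 307) in I173A. Its ratio was 2.06 (1.86 to 2.30), from 507 and 1115 UMIs, and 47.3% and 68.9% of members had at least 1. Ddit4 (chromosome 10, 59949675 to 59951770), whose product REDD1 restrains the growth kinase mTORC1, was at 193 CPM (179 to 208) and 377 (358 to 397). The Ddit4 ratio was 1.95 (1.78 to 2.14), with a UMI in 57.3% and 76.6% of members. After thinning, the shares of cells were 32.0% and 52.0% for Tsc22d3 and 40.03% and 61.9% for Ddit4. The higher level was therefore spread over many cells.

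The list of glucocorticoid and FoxO targets, to which both genes belong, was higher as a sum. Of its 23 genes 18 were measured, 16 with a ratio above 1 and 2 past 1.5-fold, and the median log2 ratio was 0.22. The sum reached 1746 CPM for WT and 2279 for I173A, a ratio of 1.31 (1.26 to 1.35). Most of that difference in CPM came from Tsc22d3 and Ddit4, so the summed ratio largely restates those genes. Txnip, which holds back glucose uptake, was at 267 and 359 CPM, or 1.34 times (1.24 to 1.46). Pik3ip1, an inhibitor of PI3 kinase, was at 84.3 and 106 CPM, 1.26-fold higher (1.08 to 1.46). Foxo1 itself was near 1, at 1.02.

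Among targets of TCR signalling, the differences were mixed. Of 31 listed genes 17 were measured, 13 had a ratio above 1, the median log2 was 0.15 and the summed ratio 1.05. Nr4a1, an early gene whose level follows the strength of the TCR signal, was at 24.1 CPM (19.3 to 29.7) in WT and 38.4 (32.5 to 45.1) in I173A, a ratio of 1.60 (1.22 to 2.11). Its UMIs came from only 4.22% and 4.73% of members, and with at least 2 Klf2 UMIs required the log2 ratio was -0.19 in place of 0.68. Cd5, a surface inhibitor set by the strength of self recognition, was at 190 and 220 CPM, 1.15-fold higher (1.04 to 1.28), and Cd6, its relative, also had a ratio of 1.15 (1.03 to 1.29). Egr2, an early transcription factor, was at 12.99 and 17.1 CPM, or 1.32 times (0.893 to 1.96) whose interval included 1. Pdcd1, the inhibitory receptor PD-1, had 22 and 25 UMIs.

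Cd69 lay on the opposite side. CD69 is induced by TCR signals and, as a protein, binds the S1PR1 receptor and removes it from the surface. Its transcript had 151 CPM in WT members and 98.6 in those of I173A, a ratio of 0.652 (0.57 to 0.74), and 41.1% and 30.0% of members had a UMI of it, or 27.7% and 19.97% after thinning. The chains and proximal kinases of the receptor were close to even. Of 32 measured genes of that list 18 had a ratio above 1, none was past 1.5-fold, and their sum was 12021 and 11996 CPM. Cd3e, the gene that carries the mutation, was at 1449 and 1496 CPM, or 1.03 times (0.995 to 1.07), which says nothing of the substitution since the counts do not resolve it. Lck, the kinase that starts the signal, was at 941 and 830 CPM, or 0.88 times (0.84 to 0.93).

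Genes of maturation and egress differed by less than 1.5-fold in either direction. Of 29 measured genes of the list 17 had a ratio above 1, with a median log2 of 0.03. Bcl2, which protects mature cells from death, was at 233 and 316 CPM, 1.36-fold higher (1.24 to 1.48). Il7r had a ratio of 1.26 (1.14 to 1.39), Il2rb, the receptor chain shared by interleukins 2 and 15, was at 113 and 150 CPM with a ratio of 1.33 (1.17 to 1.51), and S1pr4, a relative of S1pr1, had 1.22 (1.08 to 1.38). Ccr7 was at 1.01 (0.959 to 1.07). Ccr9 had 267 CPM in WT members and 207 in those of I173A, a ratio of 0.777 (0.71 to 0.85). On the lower side of the list were Gimap7 and Gimap6, of a family of GTPases of lymphocyte survival. Gimap7 had 87.1 CPM in WT members and 64.1 in those of I173A, a ratio of 0.736 (0.621 to 0.872), and Gimap6 had 382 and 308, a ratio of 0.806 (0.746 to 0.872). Of the 29 genes 8 had an interval above 1 and 4 an interval below 1, and the summed ratio was 1.01 (0.993 to 1.02). The semimature stage list, which holds Ccr9 and Cd69, was split in the same way, with 9 of 16 ratios above 1 and a median log2 of 0.01. Its highest ratio was that of Gpr83, a G protein-coupled receptor, at 19.9 and 37.6 CPM, or 1.89 times (1.42 to 2.54).

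Runx3, the factor of the CD8 fate, was at 106 and 134 CPM, or 1.26 times (1.10 to 1.44). Cd8a, the CD8 α chain, was at 1169 and 980 CPM, or 0.84 times (0.80 to 0.88). Of the 12 measured genes of the CD8 lineage 4 had a ratio above 1, with a median log2 of -0.07. Among cytokine receptors and their SOCS inhibitors, 15 of 21 measured genes had a ratio above 1. Cish, induced by STAT5, was at 17.1 and 24.7 CPM, or 1.44 times (1.03 to 2.01), while Socs3 was at 34.0 and 22.1, a ratio of 0.65 (0.49 to 0.86).

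Further genes with high ratios were less abundant. Cxcr4 (chromosome 1, 128588199 to 128592299), the receptor for CXCL12 that is high before positive selection, was at 9.95 and 21.8 CPM, 2.19-fold higher (1.47 to 3.33). Plaur, the urokinase receptor, was at 9.95 and 24.4 CPM, 2.45-fold higher (1.65 to 3.71). Fuca2, a fucosidase, was at 8.57 and 21.0 CPM with the same ratio of 2.45 (1.60 to 3.84). Prag1, Mir142hg, Hopx, Gpr83, Gabrr2 and Nfic had ratios from 1.81 to 1.93. Mir142hg is the host transcript of a microRNA, and how reads were split between it and its neighbours is uncertain.

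The stress and early response genes were lower in I173A. Of 15 measured genes of the list, which holds AP-1 factors and heat shock proteins that dissociation and sorting can induce, 2 had a ratio above 1, 9 had an interval wholly below 1 (6.13% over all genes), and the sum was 6129 and 5240 CPM. Jun (chromosome 4, 95049036 to 95052222), an AP-1 factor, was at 49.8 CPM (42.8 to 57.6) in WT and 16.6 (12.8 to 21.2) in I173A, a ratio of 0.334 (0.247 to 0.446). Jun was seen in 20.2% and 7.60% of members. Hsph1 (chromosome 5, 149616843 to 149636498), a heat shock protein, was at 57.2 and 26.7 CPM, or 0.467 times (0.365 to 0.594). Hspa8, the constitutive chaperone and far more abundant, was at 1571 and 1151 CPM, or 0.73 times (0.70 to 0.76). Jund was at 0.88 (0.83 to 0.93). Cells were stained with hashtags and sorted before sequencing, and the labels do not say whether handling differed between the genotypes, so handling and genotype cannot be told apart for these genes.

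Genes of DNA replication were lower in I173A members, although the rule had removed dividing cells by mitotic genes. Of 19 measured S phase genes 2 had a ratio above 1 and 10 had an interval below 1 (6.13% over all genes), with a median log2 of -0.29 and sums of 1415 and 1154 CPM. Mcm5, a subunit of the replicative helicase, was at 76.9 and 50.3 CPM, or 0.66 times (0.54 to 0.79). Hells, a chromatin remodeller of S phase, was at 45.6 and 29.8 CPM, or 0.65 times (0.51 to 0.84). After thinning, 7.58% of WT and 5.03% of I173A members had 10 or more UMIs of the list. Without the members that had as many before thinning, which left 514 WT and 596 I173A cells, the median log2 was -0.024 and that of Hells 0.15. That filter acts on the quantity compared, so a smaller median follows from it in part.

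Ly6a, which encodes Sca-1, was at 33.7 and 11.7 CPM, or 0.346 times (0.240 to 0.491), and its family member Ly6k at 30.7 and 16.3, a ratio of 0.533 (0.385 to 0.732). Both belong to a family of similar genes. Ncapd2, Polg2, Zfp213, Banp, Art2b and Sdf2l1 had ratios from 0.457 to 0.594. The lowest ratios were those of the chemokines Ccl4 and Xcl1, which activated killer cells secrete. Ccl4 had 155 UMIs in WT and 2 in I173A members, but 149 of the 155 came from 1 cell. Xcl1 had 156 and 8 UMIs, 123 of the 156 from 1 cell. Neither ratio describes the members as a group.

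Interferon targets were even, with 13 of 27 ratios above 1 and a median log2 of 0.00. Of 18 genes of MHC class I presentation 4 had a ratio above 1 and 7 an interval below 1 (6.13% over all genes), with a median log2 of -0.07. Nucleolar and Myc target genes had a median of -0.02, and glycolysis genes of -0.04. The plot of gene lists gives each gene and each median.

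**Figure D3:**
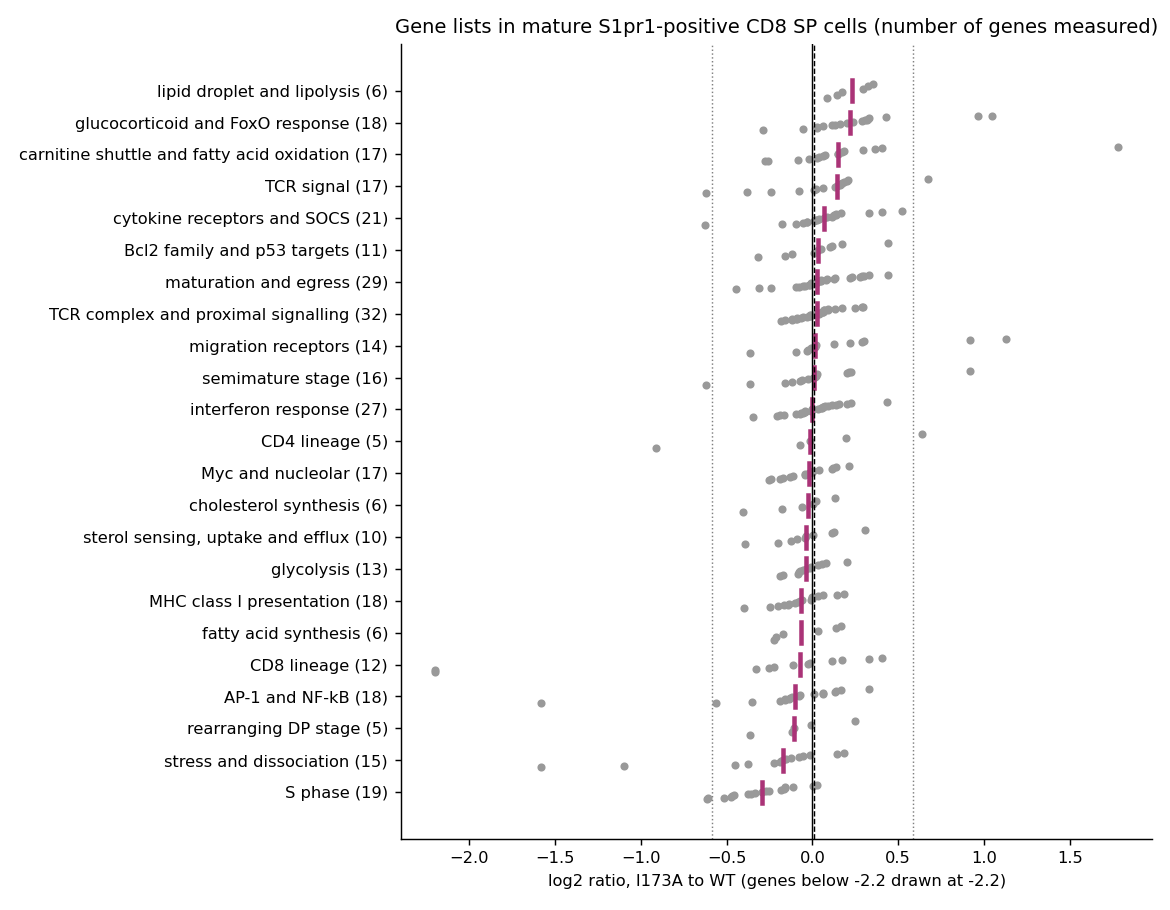
Log2 ratio of I173A to WT in members for each measured gene (grey points) of the 23 lists with at least 5 measured genes, with the list's median as a purple bar, the median of all genes as a dashed line and 1.5-fold as dotted lines; Ccl4 and Xcl1, which lie below the axis, are drawn at its edge. The lipid droplet and glucocorticoid lists have the highest medians (0.23 and 0.22) and the S phase and stress lists the lowest (-0.29 and -0.17).

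The same ratios were taken outside the members. Cpt1a was 4.00-fold higher in I173A (2.85 to 5.73) in CD8 SP cells without S1pr1 and 4.58-fold (3.44 to 6.17) in CD4 SP cells of the same rule. Tsc22d3 was 2.33-fold (2.12 to 2.57) and 2.39-fold (2.22 to 2.59) higher there, and Ddit4 was 1.97-fold (1.83 to 2.12) and 2.13-fold (2.00 to 2.27) higher. Jun had ratios of 0.407 and 0.361, and Hsph1 of 0.501 and 0.338. These populations share a staining and, within the gate, a library with the members, so the ratios are not independent of each other. Cxcr4 was 2.01-fold higher in CD8 SP cells without S1pr1 and 5.07-fold (3.17 to 8.41) in the CD4 SP cells. Hopx and Nfic, at 1.90 and 1.81 in members, were both at 1.04 in CD8 SP cells without S1pr1. Hopx was also higher in I173A in the CD4 SP cells, at 7.43 CPM in WT and 11.8 in I173A. Ly6a had a ratio of 0.346 in members and of 0.636 and 0.733 in the others. The lipid droplet median was 0.23 in members, 0.04 in cells without S1pr1 and 0.05 in CD4 SP cells, and the interferon median 0.00, -0.06 and -0.18. With 1 sample per genotype none of these differences between populations was tested.

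**Figure D4:**
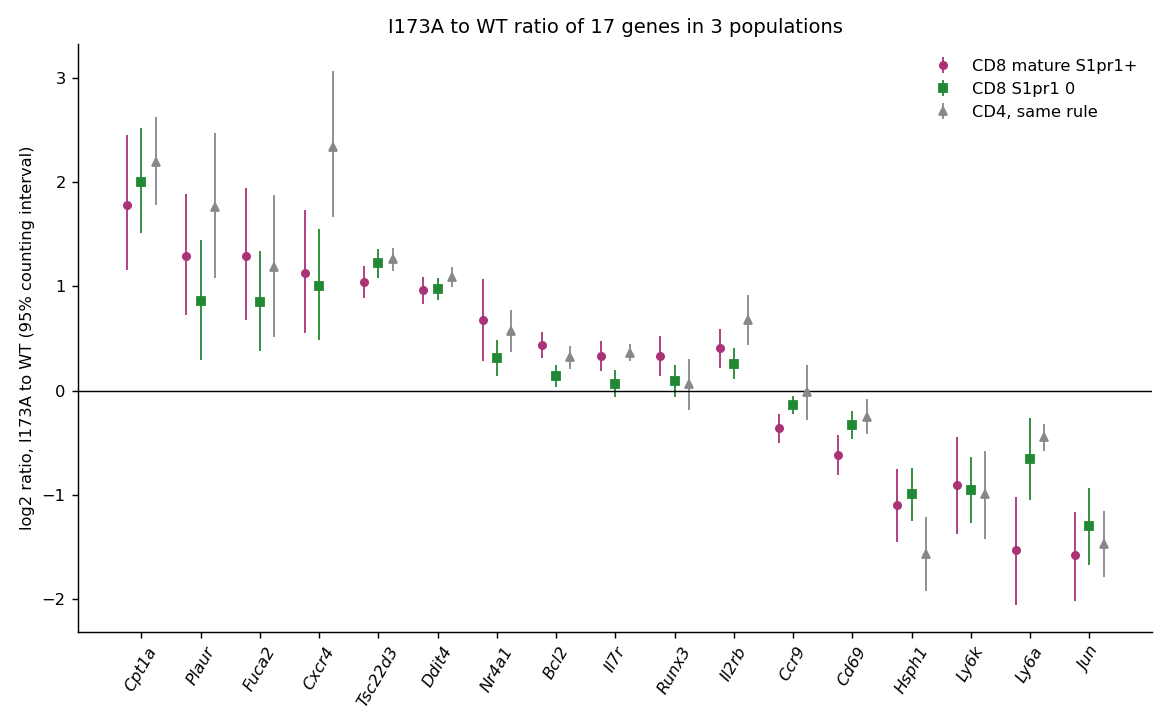
Log2 ratio of I173A to WT with exact 95% intervals for 17 genes in the members, in CD8 SP cells without S1pr1 and in CD4 SP cells chosen by the same rule. Cpt1a, Tsc22d3 and Ddit4 lie above 0 and Jun and Hsph1 below 0 in all 3 populations.

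The members were next set beside the 1242 WT and 1313 I173A cells of the same gate and the same exclusions that had no S1pr1 UMI. The rule used this contrast, so the values here and in the next paragraph only describe the selected cells. They are no independent support for the label. The I173A cells without S1pr1 also held RNA of macrophage and dendritic cell genes. In I173A 5 such genes were measured, all past 1.5-fold lower in members, with a median log2 ratio of -7.01. In WT 2 were measured, with a median of -0.38. In WT, 71 of 6168 genes were at least 1.5-fold higher in members (1.15%) and 96 at least 1.5-fold lower (1.56%), and 35 and 45 were past that fold in the same direction in both genotypes. Igfbp4, a binding protein for insulin-like growth factors that marks recently matured T cells, was at 377 CPM in WT members and 113 in the others, and at 376 and 97.7 CPM in I173A. Dapl1, found in naive CD8 T cells, was at 42.3 and 15.1 CPM in WT. Sgk1, a kinase downstream of PI3 kinase, was at 64.1 and 23.5 CPM. Il6ra, the interleukin-6 receptor, was at 35.7 and 16.2 CPM. S1pr4 was 1.52-fold higher in WT and 1.571-fold in I173A.

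On the lower side were genes of recent TCR signals. Nr4a1 was at 24.1 CPM in WT members and 83.4 in cells without S1pr1, ratios of 0.288 in WT and 0.371 in I173A. Tnfrsf9, the costimulatory receptor 4-1BB, was at 25.7 and 85.5 CPM. None of the 19 measured TCR signal genes was higher in members in either genotype, and 8 in WT and 9 in I173A were past 1.5-fold lower, with median log2 ratios of -0.47 and -0.50 against -0.06 and -0.08 over all genes. Dntt, the enzyme that adds bases at TCR joints and is carried over from the DP stage, was at 0.34 and 0.31 of the level in cells without S1pr1. Among all genes, 2240 of 6168 ratios in WT and 2143 of 6263 in I173A lay above 1, the shares to hold beside these counts. Migration genes had 10 of 12 ratios above 1 in WT and 12 of 14 in I173A. All 17 Myc and nucleolar genes had ratios below 1 in both genotypes, with medians of -0.21 and -0.32.

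Against CD4 SP cells chosen by the same rule, the thresholds were the same and lineage differed. The rule did not match levels: Klf2 was at 941 against 1047 CPM in WT and at 996 against 1116 in I173A. In WT 286 of 6345 genes were at least 1.5-fold higher in the CD8 members (4.51%) and 533 at least 1.5-fold lower (8.4%), and 182 and 295 were so in both genotypes. Gate and library cannot be told apart here. Itgae, the integrin that binds E-cadherin on epithelium, was at 249 CPM in WT members and 1.02 in the CD4 SP cells. Prf1, which encodes perforin, was 7.82-fold higher in WT and 4.49-fold in I173A. Ccr9 was 7.23-fold and 5.69-fold higher, and Il2rb 3.38-fold and 2.80-fold. Cd5 was lower in CD8 members, at 190 against 446 CPM in WT, and Itm2a, a gene induced during positive selection, at 65.2 against 332. Igfbp4 was at 377 against 1082 CPM, and Il7r at 0.62 of the CD4 level in WT and 0.60 in I173A. Tnfrsf4, the costimulatory receptor OX40, was at 3.32 against 88.0 CPM.

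Whole lists also differed between the lineages in both genotypes. All 19 measured S phase genes in WT and all 18 in I173A were higher in CD8 members, with median log2 ratios of 0.96 and 0.78, and 16 and 17 of 17 Myc and nucleolar genes were higher. Interferon targets were lower, with 2 of 29 above 1 in WT and 6 of 28 in I173A, and medians of -0.36 and -0.20. The glucocorticoid and FoxO list was lower too, with 3 and 2 of 18 genes above 1. Over all genes the medians were -0.09 and -0.10, and 2451 of 6345 ratios in WT and 2445 of 6418 in I173A lay above 1.

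The members varied among themselves. Igfbp4 was higher where more S1pr1 was captured, at 334, 415 and 423 CPM in WT members with 1, 2 and 3 or more S1pr1 UMIs and at 319, 369 and 546 in I173A. Il7r was at 168, 202 and 223 CPM in WT and at 233, 241 and 250 in I173A over the same classes. Bcl2 rose in WT, at 209, 225 and 296 CPM, but was at 326, 319 and 286 in I173A. Ccr7 showed no steady trend, at 639, 619 and 680 CPM in WT and 647, 666 and 646 in I173A. Cd8a went the other way in WT, from 1242 to 1128 and 1059 CPM, and was at 1009, 934 and 966 in I173A. The levels of these classes carry no intervals. Cells with more UMIs also have a better chance of more S1pr1 UMIs, and CPM corrects only for the totals. Members with a Cd69 UMI held most of the early response, with Nr4a1 at 45.7 CPM against 6.93 in WT and at 82.7 against 16.0 in I173A.

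The interferon programme was unevenly spread. After thinning, 65.4% of WT and 61.0% of I173A members had 10 or more UMIs of its list, the median member had 12 in both genotypes, and the highest had 94 and 109. In cells without S1pr1 the shares were 54.7% and 50.1%. TCR signal genes reached 10 UMIs in 14.3% and 14.2% of members and in 28.1% and 26.3% of cells without S1pr1. The genotypes were close to each other in both.

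TCR chains were recovered in most members. An α chain was found in 86.4% of WT and 83.8% of I173A members, a β chain in 95.3% of each, and both in 85.6% (82.7 to 88.3%) and 82.5% (79.5 to 85.2%). Having 2 or more α chains, which incomplete allelic exclusion allows, was seen in 15.0% and 13.9% of members with an α chain. Having 2 or more β chains, which can also mark a droplet with 2 cells, was seen in 5.41% and 5.12% of members with a β chain. In the DP gate only 27.8% and 35.1% of cells had an α chain, so shares of α segments there describe those cells alone. The invariant TRAV11 to TRAJ18 chain of natural killer T cells was in 0 of 553 WT and 0 of 584 I173A members with an α chain. The intervals reach up to 0.665% and 0.630%.

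Use of segments was similar in both genotypes. Of 60 segments found in at least 30 members, 5 were past 1.5-fold and 1 had an interval that left out 1. That was TRAV16, at 2.17% of WT (12 of 553) and 5.14% of I173A members (30 of 584), a ratio of 2.37 (1.18 to 5.08). TRAV16 has near-identical copies, and the family together was at 10.5% and 13.7%, a ratio of 1.31 (0.92 to 1.86). No interval of the 12 α or 16 β families left out 1.

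Segments set the members apart from CD4 SP cells more than the genotypes from each other. TRBV12-1 was in 10.3% of WT and 7.83% of I173A members and in 1.84% and 1.78% of CD4 SP cells of the same rule, 5.62-fold (3.35 to 9.81) in WT, and was in 7.11% and 8.11% of DP cells. TRBV29 was in 6.72% and 8.28% of members, in 1.29% and 2.25% of CD4 SP cells and in 4.06% and 3.81% of DP cells. TRBV31 was in 3.28% and 2.26% of members against 8.55% and 7.11% of CD4 SP cells, and TRBV2 in 3.11% and 3.31% against 8.46% and 8.18%. The TRAV16 family was in 10.5% and 13.7% of members, in 3.61% and 5.24% of CD4 SP cells and in 4.29% and 5.26% of DP cells. TRAJ22 was the segment of the recurrent TRAV14 and TRAV16 joints shown above. It was in 7.59% and 8.05% of members, 6.74% and 4.99% of CD4 SP cells and 2.71% and 3.16% of DP cells. TRAJ30 was in 5.97% and 7.88% of members, 2.18% and 3.25% of CD4 SP cells and 2.14% and 2.95% of DP cells. CD8 SP cells without S1pr1 had similar shares. TRBV12-1 was in 10.6% and 9.44% of them, TRBV29 in 6.47% and 6.24% and TRBV31 in 3.79% and 3.37%. The TRAV16 family was in 9.42% and 10.6%, TRAJ22 in 8.28% and 8.55% and TRAJ30 in 6.28% and 5.58%. For each single segment named here, the ratio of members to these cells had an interval that included 1 in both genotypes. The differences from CD4 SP cells were thus not particular to members.

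**Figure D5:**
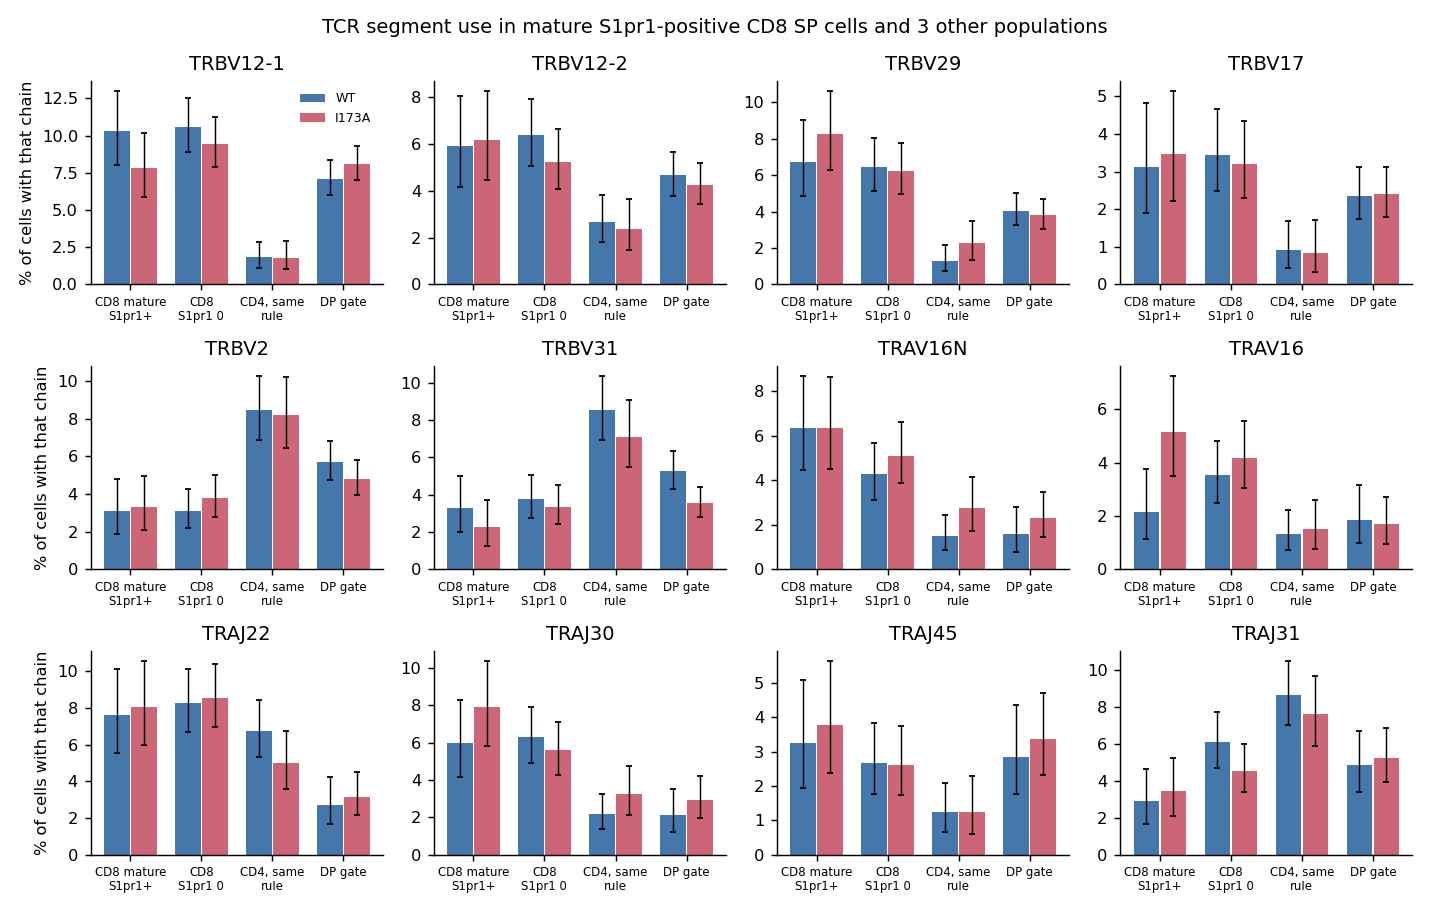
Share of cells with that chain (percent, exact 95% Clopper-Pearson intervals) that used each of 12 TCR segments in the members, CD8 SP cells without S1pr1, CD4 SP cells of the same rule and DP cells, WT in blue and I173A in red. TRBV12-1 and TRBV29 are high in members and in CD8 SP cells without S1pr1 and low in CD4 SP cells. TRBV31 and TRBV2 show the reverse, and the genotypes lie close together.

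Short β CDR3 loops had a larger share in members than in DP cells, more clearly in WT. Loops of 13 or fewer amino acids made up 38.6% (34.8 to 42.5%) of β chains in WT members and 33.5% (30.0 to 37.2%) in I173A members. In DP cells they made up 28.6% (26.6 to 30.6%) in WT and 29.0% (27.1 to 30.9%) in I173A, so the I173A intervals overlapped. The shares were 39.3% and 35.9% in CD8 SP cells without S1pr1 and 40.5% and 37.1% in CD4 SP cells of the same rule. For α chains they were 43.2% and 40.2% in members, 50.6% and 50.1% in the CD4 SP cells and 38.6% and 39.6% in DP cells. The I173A share of short β loops was lower than that of WT in members, with intervals that overlapped.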

How the data were processed

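The authors deposited raw UMI counts per gene and barcode for 3 RNA libraries, with hashtag counts in the same matrices, and TCR contig tables with the UMI count of each contig. Cell Ranger 6.0.1 and GRCm38 (mm10) are named in the submitters' processing notes, whereas software version 3.1.0 stands in the matrices, per the file headers. Hashtag 4 marked WT and hashtag 6 I173A, per the labels' protocols. A barcode took a hashtag with at least 10 counts and 4 times every other, and the rest were left out, so doublets of 1 genotype remain. Cells with fewer than 500 genes or over 10% mitochondrial UMIs were dropped. The members and all gene lists were chosen with earlier results of these data known.

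UMIs were summed per genotype and population and divided by the total (CPM). Levels carry exact Poisson intervals, ratios the exact conditional interval of 2 Poisson counts and shares Clopper-Pearson intervals. For shares, cells were also thinned to 3000 UMIs (seed 1). With 1 sample per genotype no count test was run. Of 31053 genes, 35 symbols used by more than 1 identifier were left out of lists. Genes were named as the 12 highest and 12 lowest ratios above the floor whose interval left out 1 (no receptor segment, haemoglobin, mitochondrial, ribosomal protein or clone-named genes), the markers, and up to 4 highest and 4 lowest of each list, 186 in all, 185 with RefSeq coordinates (GRCm38.p6). Other populations were described by up to 10 extremes a direction and by list members. TCR segments and genes outside this rule were chosen after their values were seen. Alternatives changed the hashtag rule, filters, rule thresholds, thinning, scaling and floor. Scripts ran in Python 3.11.15 with numpy 2.4.6, scipy 1.17.1, pandas 2.3.3 and matplotlib 3.10.9 and were tested on simulated data. A few listed genes are not reported here.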

Additional observations from a re-analysis of the deposited data

Results flagged for a closer look

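Ccl4 lay in opposite directions in 2 populations of the same gate. Its ratio of I173A to WT was 0.0121 in members, where 149 of the 155 WT UMIs came from 1 cell, and 9.02 in CD8 SP cells without S1pr1, where WT had 33 UMIs in 18 cells and I173A 299 UMIs in 22 cells, up to 87 in 1 of them. The difference was not tested. The I173A cells without S1pr1 also held RNA of macrophage and dendritic cell genes, and whether the Ccl4 UMIs came with it was not tested.

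Hashtag 5, which has no genotype in the labels, marked 573 cells that met the rule and entered no comparison of genotypes. Their Tsc22d3 level was 163 CPM, 1.16 times that of WT members (1.03 to 1.32), and their Ddit4 level was 241 CPM, 1.25 times (1.12 to 1.38), above WT and below I173A members for both.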

How the results depend on the processing

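Of the values recomputed, 2774 kept their direction and size class, 96 moved and 2 reversed. The log2 ratio of Nr4a1 turned from 0.68 to -0.19 with at least 2 Klf2 UMIs, and that of Hells from -0.61 to 0.15 without cells with 10 or more S phase UMIs (added after seeing the data), where the S phase median was -0.024. The TCR signal median became 0.072 with 2 Klf2 UMIs and 0.031 with no cycling UMI. The fatty acid oxidation median became 0.083 without cells of 2 or more β chains or over 15000 UMIs, 0.054 with thinning before the rule and 0.068 with no floor. The interferon median became 0.061 without those cells, -0.075 with thinning and 0.053 with equal weights. Genes past 1.5-fold, 55 higher and 39 lower, numbered 151 and 110 at 50 UMIs and 10 CPM, 11 and 8 at 200 UMIs and 40 CPM, and 1295 and 1061 with no floor. The ratio of the members' share of the gate ran from 1.04 with 2 S1pr1 UMIs to 1.19. The 24 extreme genes kept their direction under every setting that gave a value, and 17 stayed past 1.5-fold; without its highest cell, the log2 ratio of Ccl4 was -2.68 in place of -6.37 and that of Xcl1 -2.55 in place of -4.38. The filter on S phase UMIs acts on the quantity compared; the cause of each other move was not tested. Depth limits low genes most. No paired analysis was possible because each genotype was 1 sample per gate.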
